A study of Mus musculus with 30 samples.

Results

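Retinoic acid is made, bound, destroyed and sensed by a small set of proteins, and 9 of their genes were followed here through mouse epiblast stem cells and the definitive endoderm made from them. They were taken as a fixed list of names: Rdh10 and Aldh1a2 of synthesis, the retinal reductase Dhrs3, Cyp26a1 of breakdown, the binding proteins Crabp1 and Crabp2, and the receptors Rara, Rarb and Rarg. All 9 were among the 29555 genes of both RNA count tables. Peaks of open chromatin in these genes or within 10 kb of either end numbered 118 of 158917 in the table that holds endoderm and 142 of 181059 in the table of stem cells across strains.

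Epiblast stem cells (EpiSCs) are pluripotent lines with the character of the epiblast just before gastrulation. They were cultured on a feeder layer in N2B27-based medium with Fgf2, ActivinA and the Wnt inhibitor NVP-TNKS656, and were used at passages 5 to 10 without further treatment. Definitive endoderm (DE) was obtained from C57BL/6 (B6) EpiSCs with CHIR followed by ActivinA and LDN193189, and CXCR4-positive cells were kept by magnetic sorting. The labels give steps of 16 h and 24 h and, elsewhere, a total of 46 h. The RNA-seq libraries used were 5 of B6 EpiSC, 4 of B6 DE, 3 of PWK EpiSC, 3 of EpiSC labelled B6.129 F1 (F1 below) and 1 of DBA EpiSC. The ATAC-seq libraries, which count transposase cuts in open chromatin, were 4 of B6 EpiSC, 4 of B6 DE, 2 of PWK EpiSC and 1 of DBA EpiSC. The labels call them biological replicates and do not say which came from separate lines or cultures, so the p-values measure the spread between these libraries, part of which may be technical. No retinoid is named among the additions to the medium or to the differentiation steps.

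Total counts ran from 24529054 to 29947841 in the EpiSC RNA libraries, from 22829536 to 66563933 in the DE RNA libraries, and from 3751526 to 9571127 in the ATAC libraries. The labels held against marker lists: 11 of 11 endoderm markers rose in DE (summed level 8791 to 20309 CPM, against 574 to 1445 in EpiSC), and 6 of 9 markers of the primed pluripotent state fell while 2 rose. Cxcr4 is among the 11, and as DE cells were sorted on its protein, its rise is no check of the label. Feeder fibroblast markers were present in both groups and were lower in DE for 11 of 14 genes, none of them at 0 in every library of a group. Their summed level was 286 CPM in DE replicate 2 and 91.5 to 101 in the other DE libraries, against 98.3 in EpiSC replicate 1 and 516 to 3149 in the other 4 B6 EpiSC libraries. Mesoderm markers fell in 3 of 5 tested (4.42 to 21.2 CPM in DE, 105 to 556 in EpiSC), 1 of 4 tested neuroectoderm markers rose and 1 fell (15.0 to 22.9 against 335 to 756 CPM), and 2 of 5 tested visceral endoderm markers rose (3.78 to 17.9 against 2.54 to 6.16 CPM). Their part in the results below was not tested. Levels are counts per 1000000 counts (CPM), scaled by trimmed means of M values and not divided by transcript length, so each gene is compared with itself and not with another.

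Retinol from the blood is oxidised to retinal by dehydrogenases such as RDH10, and retinal is oxidised to retinoic acid by the ALDH1A enzymes. The acid moves through the cell on CRABP proteins, is hydroxylated and cleared by CYP26 enzymes, or binds the receptors RARA, RARB and RARG, which sit on DNA with an RXR partner. In the gastrulating embryo retinoic acid patterns the trunk and the foregut endoderm, and Cyp26a1 and Rarb are textbook direct targets of the receptors through a repeated short site with a gap of 5 bases, called a DR5 element.

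The stretches just before the starts of Cyp26a1, Rarb and Rarg are shown because the RNA of these genes had the largest fitted changes between EpiSC and DE among the 8 of the 9 genes tested, and because open chromatin was measured there. Each line gives the 250 bases before a listed start, read 5′ to 3′ on the strand of the gene from RefSeq on GRCm38.p6, and the capitals mark a DR5 match. The Cyp26a1 stretch is chr19:37697558-37697807 on the plus strand, the Rarb stretch is chr14:16575477-16575726 on the minus strand, and the Rarg stretch is chr15:102246501-102246750 on the minus strand, before the internal of its 2 listed starts.
Cyp26a1: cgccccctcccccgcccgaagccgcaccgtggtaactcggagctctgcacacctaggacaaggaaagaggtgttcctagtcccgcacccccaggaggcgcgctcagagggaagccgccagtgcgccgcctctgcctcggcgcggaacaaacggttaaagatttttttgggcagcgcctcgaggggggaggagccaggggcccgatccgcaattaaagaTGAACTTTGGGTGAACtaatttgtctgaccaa
Rarb: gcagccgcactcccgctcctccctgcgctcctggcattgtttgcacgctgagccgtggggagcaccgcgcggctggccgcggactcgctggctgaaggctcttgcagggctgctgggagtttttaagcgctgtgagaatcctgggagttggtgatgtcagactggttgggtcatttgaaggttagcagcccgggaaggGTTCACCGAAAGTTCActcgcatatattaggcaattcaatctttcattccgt
Rarg: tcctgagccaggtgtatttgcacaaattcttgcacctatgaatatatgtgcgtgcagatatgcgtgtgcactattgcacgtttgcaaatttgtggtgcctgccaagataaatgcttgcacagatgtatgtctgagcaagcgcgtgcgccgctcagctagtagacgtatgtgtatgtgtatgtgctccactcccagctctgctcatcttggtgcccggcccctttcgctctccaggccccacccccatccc

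The pattern searched for DR5 was the site GNTCA, where N is any base, repeated on the same strand after 6 further bases, and both strands were read. In the 13 listed promoters of 7 of the genes, each running from 250 bases before the start to 50 after it, it was found in Rarb and Cyp26a1. Rarb held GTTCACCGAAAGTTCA from 52 to 37 bases before its start. Cyp26a1 held GTTCACCCAAAGTTCA on the opposite strand, printed above as its reverse complement, from 32 to 17 bases before its listed start. That stretch lies inside the annotated gene, chr19:37697738-37701536. Counted from 1 at the 5′ end of the Rarb match, the matches differ by 1 of 16 bases, G8C. The pattern was present in 283 of 32851 mouse promoters of this length (0.861%). The same site repeated after 3 bases (DR2, in 1.12% of promoters) or after 2 bases (DR1, in 1.26%) had no match in the 13 promoters. A match is a string of letters and not a measured binding site.

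With endoderm formation the RNA of the breakdown enzyme Cyp26a1 and of the receptor Rarb rose, and that of the receptor Rarg and the binding protein Crabp2 fell. Of the 9 genes, 8 had enough counts to be tested with edgeR's quasi-likelihood test. At a Benjamini-Hochberg adjusted p under 0.05, 2 of the 8 were higher in DE, where 31.5% of all 14085 genes tested were higher, and 2 were lower, where 30.6% of all genes were lower. As 62% of all genes passed the test, the share among these 8 was no larger than the background. The levels did not overlap between DE and EpiSC for 5 of the 9 genes, against 55.5% of the genes tested. Changes below are log2 values, DE minus EpiSC, with their standard errors (SE).

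**Figure D1:**
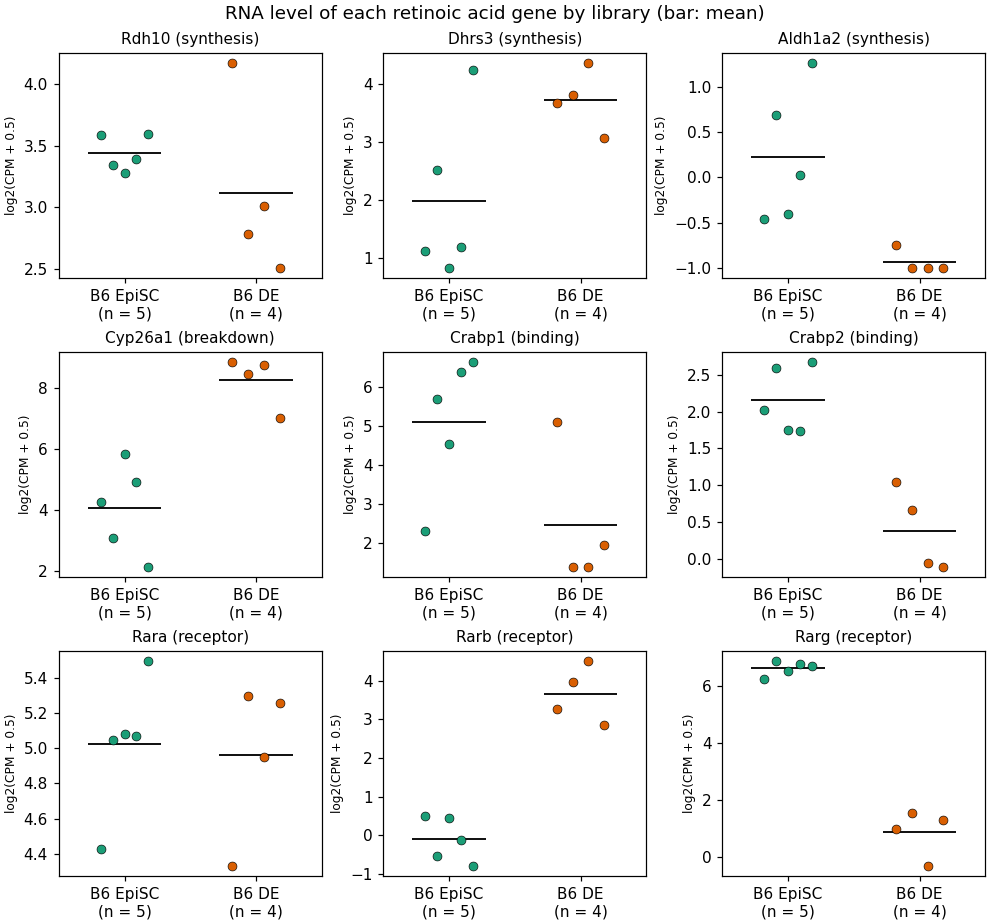
RNA level of the 9 genes as log2(CPM + 0.5), 1 point per library and a bar at the mean, for 5 B6 EpiSC and 4 B6 DE libraries, each panel with its own vertical scale. Cyp26a1 and Rarb lie higher in every DE library, Rarg, Crabp2 and Aldh1a2 lie lower, and the groups overlap for Rdh10, Dhrs3, Crabp1 and Rara.

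Rdh10 and Dhrs3, which act between retinol and retinal, did not pass the test. Rdh10, which encodes the dehydrogenase for the first oxidation step, was at 17.5 CPM in DE replicate 2, 6.35 in replicate 4, 7.54 in replicate 44 and 5.17 in replicate 51. Levels in EpiSC were 11.5, 9.66, 9.17, 9.96 and 11.6 CPM in replicates 1, 2, 4, 44 and 51. DE replicate 2 was above every EpiSC library and the other 3 DE libraries were below them all. The fitted change was -0.15 (SE 0.36, adjusted p = 0.727), and without DE replicate 2 it was -0.69 with an adjusted p of 0.0214 by the same edgeR test.

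Dhrs3 encodes a reductase that turns retinal back to retinol and is known to work together with RDH10. Its level was 12.3, 13.5, 19.9 and 7.89 CPM in DE replicates 2, 4, 44 and 51. Levels in EpiSC replicates 1, 2, 4, 44 and 51 were 1.67, 5.20, 1.27, 1.79 and 18.3 CPM. All DE libraries were above 4 of the EpiSC libraries, and EpiSC replicate 51, the one with the most feeder marker RNA, overlapped them. The change was 1.27 (SE 0.75, edgeR adjusted p = 0.163). Without EpiSC replicate 51 it was 2.45 with an adjusted p of 0.00268. Dhrs3 overlaps the gene Vps13d, and whether the counting used the strand is not given in the sources used here.

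Aldh1a2, the enzyme that makes retinoic acid from retinal in the early embryo, had almost no reads in DE. Its counts were 2 in DE replicate 2 and 0 in the other 3 DE libraries, where a count of 0 allows up to 0.0459 to 0.115 CPM (3 counts). In EpiSC replicates 1, 2, 4, 44 and 51 they were 6, 29, 7, 16 and 51. No DE library reached an EpiSC library. Over pooled counts, 109 against 2, the level in EpiSC was 68.1 times that in DE, with an exact 95% interval of 18.4 to 569 that covers counting error only. The gene was too low for the test across genes in the fit of all libraries. Without DE replicate 2 it passed the filter and was called. Its highest EpiSC values were in replicates 51 and 2, which also had the most feeder marker RNA (3149 and 1383 CPM).

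Cyp26a1, the enzyme that clears retinoic acid, rose with a log2 change of 3.90 (SE 0.72) and an edgeR adjusted p of 0.000845. Its level was 456, 350.5, 425 and 129 CPM in DE replicates 2, 4, 44 and 51. The EpiSC libraries 1, 2, 4, 44 and 51 were at 18.7, 7.85, 56.5, 29.5 and 3.82 CPM. The lowest DE library was above the highest EpiSC library, although both groups spread widely, with means of 340.1 ± 148 (SD, n = 4) and 23.3 ± 21.1 (SD, n = 5). The fold was 14.9, and without EpiSC replicate 4, the highest of its group, the change was 4.53. The other genes of the family, Cyp26b1 and Cyp26c1, had too few reads to be tested in either group.

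The binding proteins were both lower in DE on average, and the difference passed the test for 1 of the pair. Crabp2, which hands retinoic acid to the receptors, was at 1.57, 1.08, 0.46 and 0.43 CPM in DE replicates 2, 4, 44 and 51. Levels in EpiSC replicates 1, 2, 4, 44 and 51 were 3.58, 5.54, 2.87, 2.83 and 5.86 CPM. All EpiSC libraries were above all DE libraries, and the change was -2.20 (SE 0.52, edgeR adjusted p = 0.00408). Feeder markers were also lower in DE, and their part in the Crabp2 result was not tested.

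Crabp1, whose protein holds retinoic acid in the cytoplasm, was at 33.7, 2.13, 2.12 and 3.39 CPM in DE replicates 2, 4, 44 and 51. The EpiSC libraries 1, 2, 4, 44 and 51 were at 4.45, 50.7, 22.7, 82.2 and 98.7 CPM. DE replicate 2 was above EpiSC replicates 1 and 4, so the groups overlapped. The change was -2.29 (SE 1.06, edgeR adjusted p = 0.0812). It passed at -4.32 (adjusted p = 0.00324) without DE replicate 2 and at -2.59 (adjusted p = 0.043) without EpiSC replicate 1. DESeq2 on all libraries called it at -2.31 (adjusted p = 0.0461). Feeder markers moved with it: EpiSC replicate 1 had the lowest marker sum of its group and the lowest Crabp1, replicate 51 the highest of both, and DE replicate 2 the highest of both in its group. Their part in the Crabp1 result was not tested.

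The receptors went in different directions. Rara, which is expressed in most tissues, was at 19.6, 38.9, 30.5 and 37.8 CPM in DE replicates 2, 4, 44 and 51. Levels in EpiSC replicates 1, 2, 4, 44 and 51 were 21.0, 32.6, 33.4, 33.1 and 44.7 CPM. The groups covered nearly the same range, and the change was -0.04 (SE 0.25, edgeR adjusted p = 0.903). Rara overlaps the gene models Gm46294 and Gm22061.

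Rarb, the receptor whose own promoter carries the DR5 match shown above, was at 9.09, 15.1, 22.3 and 6.68 CPM in DE replicates 2, 4, 44 and 51. The EpiSC libraries 1, 2, 4, 44 and 51 were at 0.91, 0.19, 0.87, 0.42 and 0.07 CPM, from 24, 5, 24, 13 and 2 counts. Every DE library was above every EpiSC library. The change was 4.76 (SE 0.68, edgeR adjusted p = 0.000171), a fold of 27.1. The gene spans 651493 bases and 4 annotated pseudogenes lie within it.

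Rarg, a receptor known from skin and other epithelia, was at 1.47, 2.40, 0.31 and 1.99 CPM in DE replicates 2, 4, 44 and 51. Levels in EpiSC replicates 1, 2, 4, 44 and 51 were 73.6, 115, 91.0, 106 and 103 CPM. The groups were far apart, with means of 1.54 ± 0.91 (SD, n = 4) and 97.8 ± 16.1 (SD, n = 5). The log2 change of Rarg was -5.92 (SE 0.48) with an edgeR adjusted p of 4.4e-06, a fold of 60.6. In these bulk libraries, fewer cells that express a gene and less of its RNA per cell cannot be told apart.

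**Figure D2:**
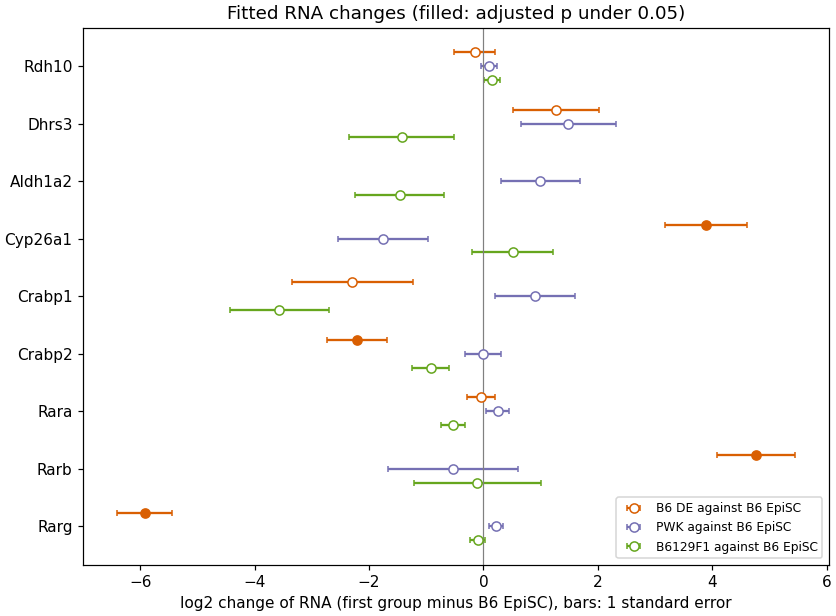
Fitted log2 change of RNA for each gene against B6 EpiSC in DE, PWK EpiSC and B6.129 F1 EpiSC, with bars of 1 SE and filled points at an adjusted p under 0.05. Only Cyp26a1, Crabp2, Rarb and Rarg in DE are filled, the latter at -5.92, and Aldh1a2 has no DE point because it was not tested there.

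Genes that resembled the most changed members over the 16 libraries were found by the root mean square difference of log2 levels after each gene was centred on its mean, among 9260 genes. Nearest to Rarg were Enc1 (0.30) and Pip4k2b (0.36). Nearest to Rarb were Cd55 (0.36) and Chrnb4 (0.49). Nearest to Cyp26a1 were the keratin gene Krt7 (0.73) and Lhx1 (0.74), a transcription factor gene of the anterior endoderm.

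Around these genes lie the carriers, partners, coregulators and targets of the pathway, taken as 6 lists of 62 genes. Of these, 40 were tested in DE against EpiSC, 11 were higher and 15 were lower, where 31.5% of all genes tested were higher, 30.6% lower and 62% called in all. The share called in the 6 lists together was near that background, which also stands beside the counts of each list below, and nothing particular to a list is read from them. The median change over the 40 was -0.19, beside -0.01 over all genes tested. Without DE replicate 2, 42 were tested, 12 were higher and 18 were lower.

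Of 8 genes of retinol uptake, storage and transport, 4 were tested, 3 rose and none fell, with a median of 3.38. Stra6, the membrane receptor that takes up retinol, rose from 2.60 ± 1.54 CPM (SD, n = 5) to 85.3 ± 39.3 (SD, n = 4), a change of 5.05 (SE 0.54, edgeR adjusted p = 2.4e-05). Rbp4, the carrier of retinol in blood, rose from 0.96 ± 0.38 to 41.4 ± 24.0 CPM, a change of 5.46 (SE 0.52). Dgat1, an acyltransferase that can esterify retinol, rose by 1.42 (SE 0.14).

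Of 15 other retinol and retinal dehydrogenases, 11 were tested, 4 rose and 3 fell. Rdh14 rose from 8.00 to 19.3 CPM, a change of 1.29 (SE 0.19). Aldh1a3, a retinoic acid producing relative of Aldh1a2, fell from 7.49 ± 1.39 CPM (SD, n = 5) to 1.25 ± 0.86 (SD, n = 4), and Aldh1a1 was below the filter. Of 5 genes of the RXR partners and the alternative receptor route, 2 fell and none rose, and without DE replicate 2 these were 3 and 1. Rxrg fell by 4.01 (SE 0.46) and Ppard, a receptor of that route, by 4.04 (SE 0.36) on the log2 scale. The other partners Rxra (change 0.33, SE 0.19) and Rxrb (0.31, SE 0.15) did not pass.

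Of 12 coregulators, 11 were tested, 2 rose and 6 fell. The coactivators Ep300 and Ncoa2 fell by 2.02 (SE 0.16) and by 1.90 (SE 0.20), and the histone methyltransferase Kmt2d by 1.26 (SE 0.30) on the log2 scale. Nrip1, a corepressor of ligand-bound receptors, rose by 1.15 (SE 0.21).

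Of 20 genes known as targets of retinoic acid, 9 were tested, 2 rose and 4 fell, and the Hox genes of the list were below the filter in this comparison. Zfp703 rose by 1.69 (SE 0.46) and Tshz1 fell by 2.01 (SE 0.32) on the log2 scale.

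Open chromatin near the 9 genes was tested in 97 of the 118 peaks, of which 40 were more accessible in DE and 22 less. Over all peaks tested, 57.6% were called, 32.6% more accessible and 25% less. The groups did not overlap for 55 of the 97, against 54% of all peaks tested. Both shares were near the background. Rarb had more calls than any other of the 9 genes, but it spans 651493 bases and has 42 of the 118 peaks. Of its 35 tested peaks 24 were higher, 7 lower and 4 not called. The share called was 88.6%, and the next highest was 63.6% at Rarg. The peaks of a gene share its surroundings and are not independent of each other.

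At Rarb the peak at the listed start, chr14:16575497-16575822, which contains the DR5 match, was at 9.67, 6.26, 10.0 and 7.29 CPM in DE replicates 2, 4, 44 and 51. In EpiSC replicates 1, 4, 44 and 51 it was at 10.3, 8.13, 11.2 and 10.6 CPM. The groups overlapped and the change was -0.24 (SE 0.26, edgeR adjusted p = 0.44). This start was thus open in EpiSC at a level that overlapped DE, while Rarb RNA differed 27.1-fold. It lies inside the annotated gene, chr14:16430839-17082331 on the minus strand. Whether the RNA came from this start or from another was not tested.

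Around that start, 12 of the 15 tested peaks within 50 kb were higher in DE, where 32.6% of all peaks tested were higher. The 24 higher peaks ran from 389.9 kb before the listed start to 95.8 kb after it, with a median change of 2.95 and a range from 1.01 to 5.69. Of peaks with at least the median accessibility of the table, 2 had the largest rises in the fit of all libraries. The first was chr14:16608215-16608483, 32.9 kb before the listed start within the annotated gene. It was at 13.0, 14.7, 11.7 and 11.1 CPM in DE and at 0, 0.91, 0.49 and 0.28 CPM in EpiSC, a change of 4.76 (SE 0.44, edgeR adjusted p = 2.3e-08). The other was chr14:16742361-16742792, with 36.9, 30.1, 39.1 and 34.1 CPM in DE and 1.23, 5.48, 0 and 0.28 CPM in EpiSC, a change of 4.10 (SE 0.61). Their order depended on single libraries: without EpiSC replicate 4 the changes were 5.59 and 5.83, and without EpiSC replicate 51 the latter peak changed by 3.51. The 7 lower peaks had changes from -4.05 to -0.66, and 5 of them lay after the start.

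**Figure D3:**
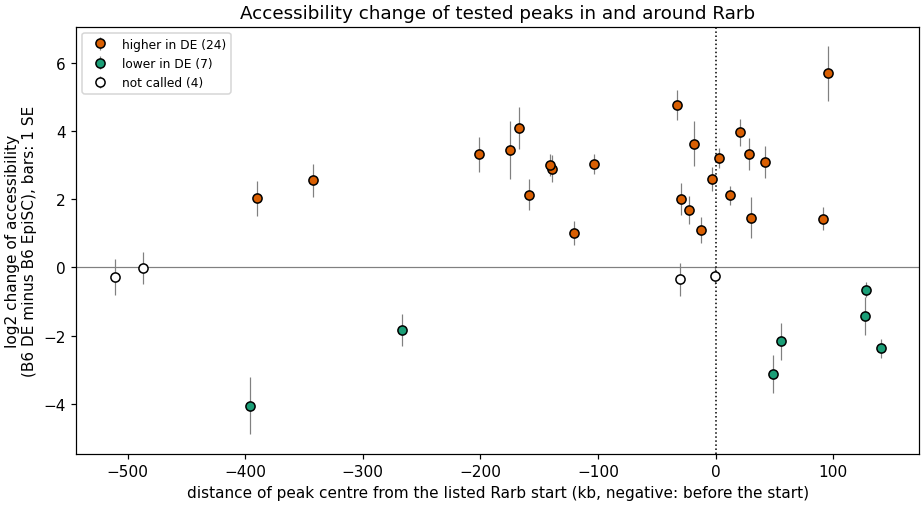
Log2 change of accessibility (B6 DE minus B6 EpiSC, bars of 1 SE) of the 35 tested Rarb peaks by the distance of the peak centre from the listed start in kb. The higher peaks (24) surround the start peak, which lies near 0 on both axes and is not called, and 5 of the 7 lower peaks lie to the right of it.

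At Cyp26a1 the start peak was likewise not called, and a peak beyond it was. The start peak, chr19:37697813-37698021, which begins 22 bases beyond the DR5 match, was at 8.09, 9.61, 8.34 and 2.91 CPM in DE and at 3.85, 6.91, 5.37 and 6.97 CPM in EpiSC. The change was 0.38 (SE 0.33, edgeR adjusted p = 0.339), with DE replicate 51 below every other library. The table of stem cells across strains has a separate peak that does contain the match, chr19:37697659-37697824, with 0.30 to 1.66 CPM in B6 EpiSC, too low to be tested. A peak within the gene, chr19:37700381-37700501, centred 2633 bases after the start, was at 4.94, 5.49, 6.03 and 5.83 CPM in DE replicates 2, 4, 44 and 51. In EpiSC replicates 1, 4, 44 and 51 it was at 0.31, 0.71, 0 and 0 CPM, and the change was 4.12 (SE 0.58, edgeR adjusted p = 4.4e-06). Its counts were 20 to 47 in DE and 0 to 7 in EpiSC. This peak was named outside the rule for peaks and was not followed through the alternatives. Of the 3 tested Cyp26a1 peaks it was the 1 called, where 57.6% of all peaks were.

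At Rarg, 6 of 11 tested peaks were lower in DE and 1 was higher, where 25% of all peaks tested were lower and 32.6% higher. The share called, 63.6%, was near the 57.6% of all peaks tested. The peak over the internal start shown above, chr15:102246375-102246611, was at 6.71, 7.63, 8.98 and 6.99 CPM in DE and at 23.9, 21.5, 27.1 and 27.6 CPM in EpiSC. The groups did not overlap, and the change was -1.68 (SE 0.21, edgeR adjusted p = 9.5e-07). The peak at the outer listed start, chr15:102257922-102258078, had a change of -0.72 (SE 0.37) that did not pass (edgeR adjusted p = 0.102). Another peak at the internal start, chr15:102246915-102247169, was at 12.6 to 18.1 CPM in DE and 19.2 to 23.4 CPM in EpiSC. Its change was smaller, -0.53 (SE 0.19, edgeR adjusted p = 0.0206). The peaks at the internal start were thus still present in DE, where Rarg RNA was 60.6-fold lower.

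Rdh10, whose RNA did not pass the test, held a peak with a strong loss. The peak chr1:16130070-16130328, near the far end of the gene, was at 2.17, 3.36, 1.80 and 4.08 CPM in DE and at 38.8, 32.5, 36.8 and 36.9 CPM in EpiSC. The change was -3.70 (SE 0.23, edgeR adjusted p = 2.6e-10), and the 5 other tested Rdh10 peaks were not called.

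**Figure D4:**
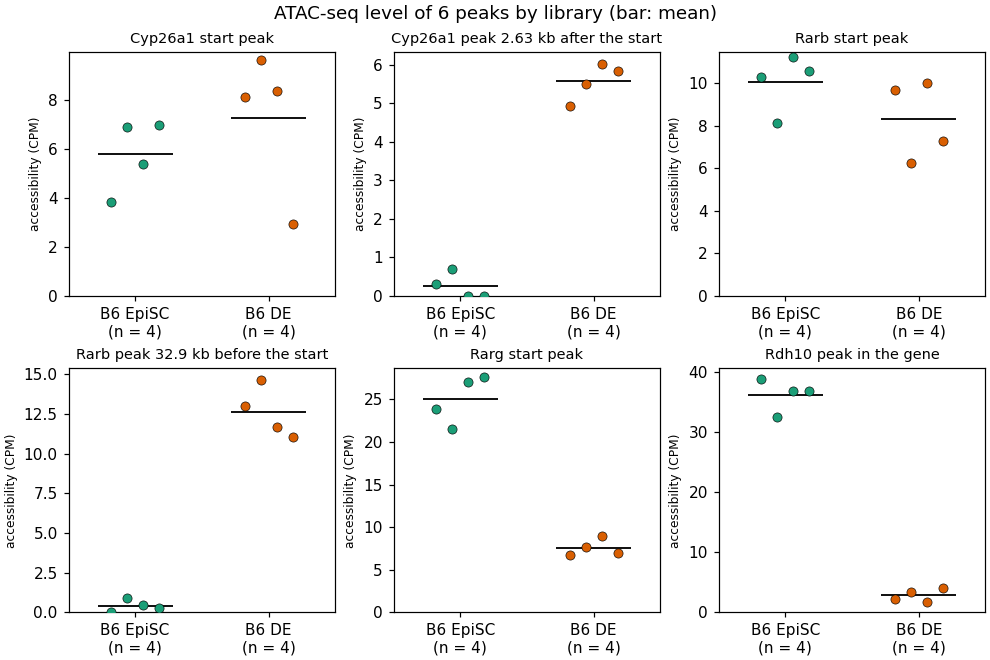
Accessibility in CPM of 6 peaks, 1 point per library and a bar at the mean, for 4 B6 EpiSC and 4 B6 DE libraries, with axes that start at 0. The start peaks of Cyp26a1 and Rarb overlap between groups, and the peaks beyond them are higher in DE. The Rarg start peak shown, chr15:102246375-102246611, and the Rdh10 peak are lower.

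The remaining genes had mixed peaks, and their counts stand beside 32.6% of all peaks tested higher and 25% lower. No share called among them was far above the 57.6% of all peaks tested. Rara, with RNA at like levels, had 8 higher and 4 lower of 20 tested peaks. Of these, chr11:98962487-98962896 went from 9.55, 12.7, 12.4 and 9.06 CPM in EpiSC to 37.3, 44.0, 37.3 and 29.4 in DE, a change of 1.80 (SE 0.18). Dhrs3 had 5 higher and 1 lower of 12 tested, with chr4:144896153-144896572 at 7.08 to 14.9 CPM in EpiSC and 26.2 to 41.7 in DE (change 1.62, SE 0.21). Crabp2 had 1 higher and 3 lower of 8 tested. Aldh1a2 had 2 tested peaks with no call, and the 2 Crabp1 peaks were below the filter.

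Across strains, the EpiSC levels of these genes overlapped between B6 and each other strain, apart from Rarb in DBA. The groups did not overlap for 32.2% of all genes tested in PWK and 15.4% in F1. The PWK and F1 comparisons use the same 5 B6 EpiSC libraries as the DE comparison, so the values are not independent of those above. In PWK against B6, none of the 9 genes passed the edgeR test at an adjusted p under 0.05, where 26.5% of 14822 genes did, and 1 had an unadjusted p under 0.05. In F1 against B6 none of 9 passed, where 2.84% of genes did, and 3 had an unadjusted p under 0.05. DESeq2 called none in PWK and 1 in F1, Crabp1.

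Cyp26a1 was the PWK gene with an unadjusted p under 0.05. It was at 7.54, 7.06 and 6.28 CPM in the PWK libraries BioRep695, BioRep698 and the third, which was matched by its group alone, within the 3.88 to 57.3 CPM of B6. In F1 replicates 4 and 9 and the third library, likewise matched by group, it was at 13.9, 37.4 and 52.9 CPM. The PWK libraries lay close together and near the low end of the wide B6 range, with a change of -1.75 (SE 0.78, edgeR adjusted p = 0.124). Without B6 replicate 51, the lowest B6 library, the change was -2.03 with an adjusted p of 0.0378, and without B6 replicate 4, the highest, it was -1.13 with an adjusted p of 0.247. The summed level of 11 endoderm markers was also lower in PWK, at 222 to 341 CPM against 586 to 1471 CPM in B6, without overlap. Trh had the largest difference in mean (34.2 CPM in PWK against 478 in B6) and was the 1 marker called. Eomes (115 against 78.5 CPM), Foxa2 (42.9 against 37.6) and Gata4 (7.81 against 7.64) were higher on average in PWK, the others lower. Within B6, replicate 44 had the highest sum, 1471 CPM, with Cyp26a1 at 30.1 CPM. The highest Cyp26a1, 57.3 CPM in replicate 4, came with a sum of 726 CPM. No marker was at 0 in every library of a group. Their part in the Cyp26a1 level was not tested.

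Crabp1 had the most distant F1 values. It was at 6.41, 3.77 and 3.61 CPM in F1 and at 120.3, 66.6 and 107 CPM in PWK, against 4.64, 51.7, 23.0, 83.7 and 100.1 CPM in B6 replicates 1, 2, 4, 44 and 51. F1 and B6 replicate 1 were low and the remaining libraries were high. The F1 change was -3.57 (SE 0.87, edgeR adjusted p = 0.0565), and without B6 replicate 1 it was -3.81 with an adjusted p of 0.0102. The feeder marker sum was 185 to 292 CPM in F1 and 103 in B6 replicate 1, the same libraries in which Crabp1 was low. It was 2690 to 3685 CPM in PWK, 1835 in DBA and 524 to 3194 in the other B6 libraries. None of the 14 feeder markers was called in either strain comparison, and their part in the Crabp1 levels was not tested.

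Dhrs3 and Aldh1a2 were also higher in PWK than in F1. Dhrs3 was at 12.5, 23.3 and 12.6 CPM in PWK and at 1.40, 4.09 and 1.08 CPM in F1, with B6 at 1.29 to 5.30 CPM in 4 libraries and 18.6 in replicate 51. Its PWK change was 1.48 (SE 0.83, edgeR adjusted p = 0.213), and without B6 replicate 51 it was 2.68 with an adjusted p of 0.00718. Aldh1a2 was at 2.79, 0.74 and 1.37 CPM in PWK and 0.18, 0.36 and 0.37 CPM in F1, against 0.24 to 1.92 in B6. The part of feeder RNA in these values was not tested.

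**Figure D5:**
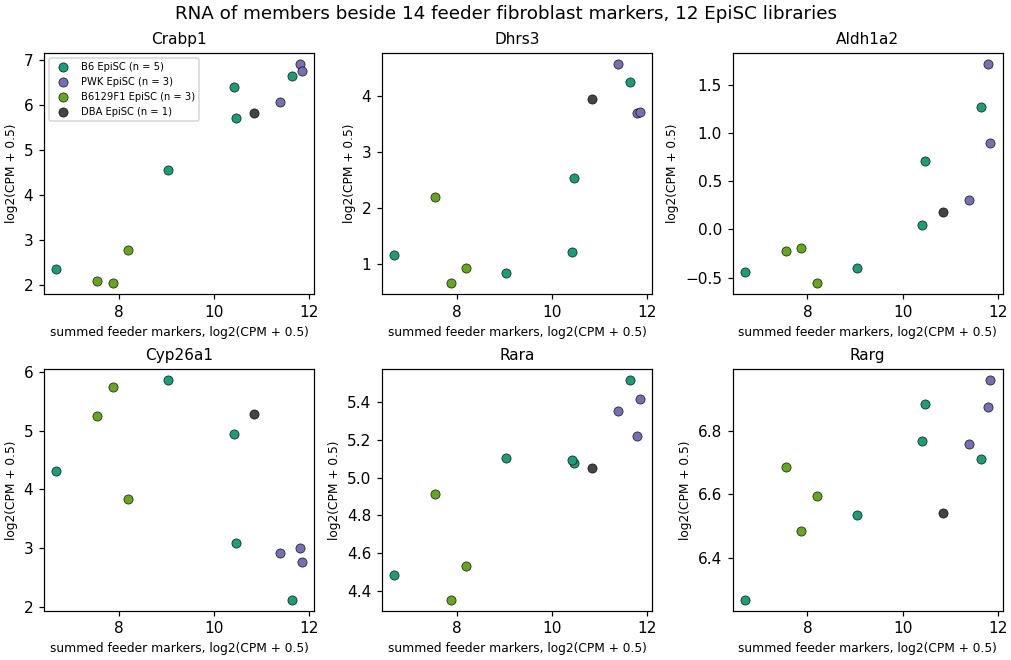
RNA of 6 genes against the summed level of 14 feeder fibroblast markers, both as log2(CPM + 0.5), in 12 EpiSC libraries of B6, PWK, B6.129 F1 and DBA. Crabp1 is low in the 3 F1 libraries and 1 B6 library with the lowest marker sums, and Cyp26a1 is low in the 3 PWK libraries and B6 replicate 51, with marker sums of 2690 CPM or more, and also in B6 replicate 2, with a sum of 1411 CPM.

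Rarg stayed within a narrow range across strains. It was at 117, 108 and 124 CPM in PWK, 96.2, 103 and 89.1 in F1 and 76.7 to 118 in B6, with changes of 0.22 (SE 0.13) and -0.10 (SE 0.13). Rara was at 36.9, 40.4 and 42.3 CPM in PWK and 22.6, 29.6 and 19.9 CPM in F1, against 21.9 to 45.3 in B6. Its F1 change was -0.52 (SE 0.21, edgeR adjusted p = 0.16), and without B6 replicate 1 it was -0.61 with an adjusted p of 0.0337. That library had the lowest feeder marker sum of B6. Over the 12 EpiSC libraries Rara correlated with that sum at 0.88 and Rarg at 0.77 (log2 levels). The correlation was 0.97 for Crabp1, 0.82 for Aldh1a2, 0.80 for Dhrs3 and 0.65 for Crabp2. It was -0.20 for Rdh10, -0.38 for Rarb and -0.63 for Cyp26a1. The part of feeder RNA in the levels of these genes was not tested. Rarb was low in all EpiSC libraries, with at most 33 counts. Rdh10 was at 9.30 to 13.4 CPM in every EpiSC library of these strains, and Crabp2 at 1.62 to 5.95.

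The DBA library has no replicate, so it was set beside the B6 range without a test. For 8 of the 9 genes it lay inside the range of the 5 B6 libraries. The exception was Rarb, with 0 counts, which allows up to 0.112 CPM (3 counts) and so cannot be told from the lowest B6 library at 0.0753 CPM. Of all genes with a mean of at least 1 CPM, 41.1% lay outside the B6 range. Dhrs3 was at 14.8 CPM and Crabp1 at 56.6 CPM in this library.

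Of the 62 pathway genes, 45 were tested across strains. In PWK 3 were higher and 5 lower, where 26.5% of all genes were called. Stra6, the retinol receptor that rose in DE, fell from 2.67 to 0.63 CPM, with a log2 change of -2.06 (SE 0.55) and an edgeR adjusted p of 0.0196. The endoderm marker sum given above was lower in the same PWK libraries, and its part in the Stra6 result was not tested. In F1 1 was lower and none higher, where 2.84% of all genes were called. Stra6 was named here for PWK after its values were seen.

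In chromatin, 118 of the 142 peaks near the 9 genes were tested between PWK and B6 EpiSC, and 5 were lower and none higher in PWK. Over all peaks 5.11% were called, 3.68% lower and 1.42% higher. The groups did not overlap for 20 of the 118, against 27.1% of all peaks tested. The Rarg peak over the internal start, chr15:102246368-102246596 in this table, was at 12.1 and 12.1 CPM in the PWK library BioRep698 and the other, which was matched by its group alone. In B6 replicates 1, 4, 44 and 51 it was at 23.4, 21.7, 27.2 and 30.0 CPM. DBA was at 27.9 CPM, inside the B6 range. The change was -1.12 (SE 0.22, edgeR adjusted p = 0.00715), with an adjusted p of 0.0623 without the latter PWK library, while Rarg RNA in PWK was within or above the range of B6. Another peak at the same start, chr15:102246915-102247247, was at 19.7 and 19.4 CPM in PWK and 19.3 to 26.1 CPM in B6. Its change of -0.235 (SE 0.204, edgeR adjusted p = 0.629) was not called.

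A peak in Rarb, chr14:16448673-16449008, was at 2.05 and 3.27 CPM in PWK and at 25.0, 22.0, 11.2 and 6.78 CPM in B6, a change of -2.65 (edgeR adjusted p = 0.00572). DBA was at 1.28 CPM, below every B6 library. The other 3 lower peaks were 2 in Rara, chr11:98953004-98953143 (change -2.11) and chr11:98954863-98955002 (change -1.72), and 1 in Rarb with 0 counts in both PWK libraries. Each of the 4 peaks followed through the alternatives lost its call when some single library was left out. Reads of all strains were counted on mm10, which is the B6 sequence, and the part of strain differences in read mapping was not tested. The start peaks of Rarb (change -0.20) and Cyp26a1 (chr19:37697907-37698016 in this table, change -0.22) were not called.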

How the data were processed

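The deposited values were raw counts of reads per gene or per peak. Per the submitters' processing notes, the authors used Salmon, featureCounts and DESeq2 for RNA, and fastp, Bowtie2, MACS2, featureCounts and DESeq2 for ATAC, with mm10; roles and versions are not given in the sources used here, nor whether peaks were called per library or pooled. RNA came from poly(A)-selected stranded libraries, per the labels' protocols.

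Counts were scaled with TMM and tested with edgeR 4.0.16 (filterByExpr, glmQLFit robust, glmQLFTest) in R 4.3.3, each comparison on its whole table, with Benjamini-Hochberg adjustment over all features and calls at an adjusted p under 0.05. PWK and F1 were fitted with B6 EpiSC in 1 model, and the RNA and ATAC tables separately. DESeq2 1.42.0, other scalings and filters, each library left out, a replicate block, DE libraries split by depth and other peak windows were alternatives. The pipeline was tested on simulated data. Peaks in a gene or within 10 kb were joined by RefSeq coordinates on GRCm38.p6, and whether peak starts count from 0 or 1 is not stated. Promoters came from RefSeq on GRCm38.p6 (7 of 9 genes, not Rdh10 and Crabp2), and no exons or introns were assigned. A start peak lies within 500 bases of a listed start.

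Columns were matched to samples by name. 17 columns of other samples were not used, 3 columns whose names match no title were given their group only, and the PWK endoderm samples were not analysed here. The genes and lists were chosen with earlier results of these data known. All 9 genes are named; a list gene is named if called with a log2 change of at least 1 and a mean of at least 8 CPM in a group, at most 5 per list, by size. Some genes of the lists that meet this rule are not reported here. Further list genes (Aldh1a1, Aldh1a3, Rxra, Rxrb, and Stra6 in PWK) were named after their values were seen. Of the peaks, those at a start and the 2 largest called changes of each gene above the median accessibility were followed through the alternatives. Intervals and floors cover counting error only.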

Additional observations from a re-analysis of the deposited data

Results flagged for a closer look

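In 63 groups of 4 or 5 libraries, 4 values lay far from the rest of their group by Dixon's criterion, which chance gives in about 1 in 20 groups. Crabp1 was at 33.7 CPM in DE replicate 2, beside 2.12 to 3.39 in the other DE libraries; that library also had the highest feeder marker sum of DE. Dhrs3 was at 18.3 CPM in EpiSC replicate 51, beside 1.27 to 5.20 in the other B6 EpiSC libraries; that library had the highest feeder marker sum of its group. Aldh1a2 was at 0.0983 CPM, from 2 counts, in DE replicate 2, beside 0 in the other 3 DE libraries. The Aldh1a2 start peak chr9:71215279-71215369 was at 3.90 CPM in EpiSC replicate 44, beside 2.93 to 3.08 in the others.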

How the results depend on the processing

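The calls of Cyp26a1, Crabp2, Rarb and Rarg in DE held under every alternative that could test them. The number of the 9 genes called in DE, 4, was 2 with at least 10 counts in every library, where fewer genes were tested, 7 with only the 2 DE libraries of higher total count, and 4 to 7 with each library left out, the highest without DE replicate 2. The number of peaks called in DE, 62, was 23 with at least 10 counts in every library and 59 to 63 with each library left out. In other windows, which hold other sets of peaks, it was 9 within 2 kb of a gene end and 103 within 50 kb. In PWK the count of genes was 0 to 2 with each library left out. In F1 it was 1 by DESeq2 and 0 to 2 with each library left out. The number of peaks called in PWK, 5 and all lower, was 2 with at least 10 counts and 2 to 6 with each library left out. In the other windows it was 0 within 2 kb and 9 within 50 kb, of which 7 were lower and 2 higher.

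Changes near 0 turned their sign. Rdh10 in DE was 0.27 with the 2 DE libraries of lower total count and -0.69 to 0.0482 with each library left out. Rara in DE was 0.22 with those of higher total count and -0.16 to 0.13 with each library left out. Crabp2 in PWK was 0.0194 with RLE scaling, 0.0199 with DESeq2, 0.0219 with at least 10 counts, 0.0613 with total library size, and -0.16 to 0.16 with each library left out. With each library left out, Rarb in F1 ran from -3.17 to 0.49, the Dhrs3 start peak in PWK from -0.57 to 0.0685 and the Rara start peak in PWK from -0.22 to 0.24. The cause was not tested.

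Same-numbered DE and EpiSC RNA libraries correlated in their deviations at 0.076, 0.139, 0.320 and 0.318 (replicates 2, 4, 44, 51) and ATAC libraries at 0.035, 0.053 and 0.066. Every one of these libraries correlated best with its own number. The main fit did not take the numbers as pairs, so its p-values leave out any pairing, and the replicate block was the alternative. With the replicate block, 5 of the 9 genes were called in DE, as in the same libraries without it, and 45 peaks against 52. With the block Crabp1 changed by -3.63 (adjusted p = 0.0106, -2.59 and 0.043 in the same libraries without it), and the Rarg peak at chr15:102246915-102247169 had an adjusted p of 0.0721 (0.0549 without it). Depth limits Aldh1a2 in DE, Rarb in EpiSC and peaks of few counts.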
